A study of Canis lupus familiaris with 2 samples.

Results

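The 10 genes followed here through single cells of canine neuroretina are widely used to recognise retinal ganglion cells. They were *NEFL*, *NEFM*, *NEFH*, *STMN2*, *GAP43*, *SNCG*, *THY1*, *RBPMS*, *POU4F1* and *UCHL1*, chosen by name with earlier results of these data known. All 10 were listed among the 34981 genes counted in dog N350. In dog N354, 9 of them were listed among 19947 genes, and *POU4F1* was the gene not listed there. Both dogs were normal (wild-type) males aged 40 weeks, were given no treatment named in the labels, and contributed 1 library each, so that the series has 1 group of 2 animals. The neuroretina was dissociated with enzymes and its cells were captured in droplets. There, each mRNA molecule that was recovered received a unique molecular identifier (UMI) and was counted once.

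Retinal ganglion cells are the output neurons of the retina, whose axons leave the eye as the optic nerve. Neurofilaments are the intermediate filaments of neurons and are most abundant in cells with long, thick axons. *NEFL*, *NEFM* and *NEFH* encode the light, medium and heavy chain, and the light chain is needed for the others to assemble. Horizontal and amacrine cells are interneurons of the outer and inner retina, and some amacrine cells share the ganglion cell layer, so a useful marker has to separate ganglion cells from both.

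Cells were sorted into classes from raw UMIs of other marker genes, none of which is among the 10, and each class is named after the markers that gated it. The ganglion gate used *SLC17A6* (the vesicular glutamate transporter of ganglion cells), *POU4F2*, *POU4F3*, *RBPMS2*, *NRN1*, *ISL2* and *CHRNB3*. It accepted 9 of 8895 cells of N350, or 0.101% (exact binomial 95% interval 0.0463 to 0.192%), and 0 of 4387 cells of N354, with an exact binomial upper limit of 0.0841%. In the accepted cells these markers stood at 7.23 UMIs per 10000, and the gate needs at least 3 UMIs. The 9 cells had 17700 UMIs or more, against a median of 1298 in all cells of N350 and 1204.5 in N354. Shallow ganglion cells can thus be missed, and the binomial limits do not cover cells missed in this way. *SLC17A6* had 63 UMIs in 10 cells of N350, of which 61 UMIs were in 8 of the 9 gated cells, and it had 0 UMIs in N354. In N350 the gated cells also held 222 of 276 UMIs of *RBPMS2*, 71 of 130 of *NRN1* and all UMIs of *POU4F2* (2) and *POU4F3* (5). They held only 11 of 78 UMIs of *ISL2* and 2 of 41 of *CHRNB3*, so both were found mostly outside the gated cells. *RBPMS2* and *ISL2* were not listed in N354. *POU4F2* and *POU4F3* had 0 UMIs in N354, so only *NRN1*, with 24 UMIs, and *CHRNB3*, with 7, could open the gate there. When the gate was limited to the markers that both dogs list, it still accepted 8 cells of N350, all of them among the 9. For N354 this is the same gate, so its 0 cells are no further check. N350 also gave 305 amacrine, 90 horizontal, 375 bipolar and 5012 rod cells, and N354 gave 41, 15, 264 and 2942. The gates left 1427 and 305 cells unassigned. The total depth was 24030707 UMIs in N350 and 9711202 UMIs in N354, and 6 barcodes occurred in both libraries.

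Levels are UMIs of a gene per 10000 UMIs counted, after adding up the gated cells of a class within each dog. The ranges in brackets are exact 95% Poisson intervals for levels, exact conditional intervals for ratios and exact binomial intervals for shares. They cover counting error only, and neither the spread between cells nor that between dogs. The level of a single cell is taken over its own UMIs, so 1 UMI can give a high level in a shallow cell. The shallowest amacrine, horizontal and bipolar cells of N350 had 556, 615 and 507 UMIs, against 17700 for ganglion cells. Highest single cells, and counts of cells that reach the lowest ganglion cell, are therefore compared at unlike depth. Because ganglion cells came from 1 dog, every comparison with them describes the library of N350 and has no replicate check, and no p-value is given for it.

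In N350, 8 of the 9 members that had at least 10 UMIs in the classes compared were at least 2 times higher in ganglion than in amacrine cells, and *GAP43* was the exception. The same difference was found for 1098 of 12315 genes (8.92%). The median ratio was 38.3 over these members and 0.76 over all genes tested. Against horizontal cells, 9 of 9 members were at least 2 times higher, a difference that 17.4% of 10417 genes showed, with a median ratio of 33.9 over the members and 0.859 over all genes. *POU4F1* had too few UMIs for either ratio. The minimum of 10 UMIs was taken over both classes summed. Over amacrine cells, *SNCG* and *RBPMS* met it only through ganglion cells, with 1023 and 116 UMIs against 0. Over horizontal cells this held for *RBPMS* (116 against 0), *SNCG* (1023 against 6), *THY1* (452 against 2) and *GAP43* (10 against 1). For these members a higher call was close to fixed in advance, and their ratios are part of the medians. The shares over all genes used the same minimum. These shares of genes come from 1 sum of cells in each class and not from a test. The members were chosen with earlier results of these data known, so their counts are a description.

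**Figure D1:**
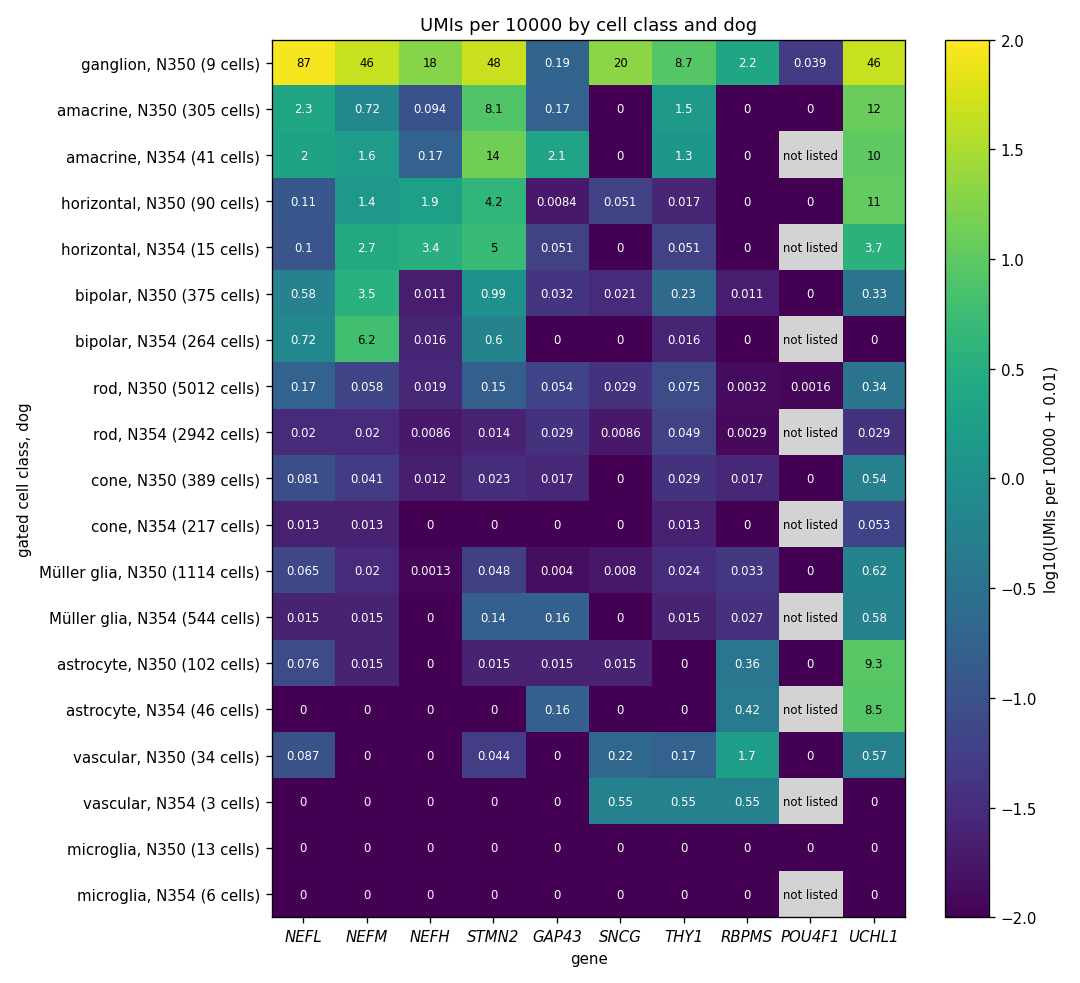
UMIs per 10000 of the 10 genes (columns) in each gated cell class and dog (rows), printed in each square and coloured on a log10 scale with 0.01 added, with grey squares where a gene was not listed. The row of 9 ganglion cells is brightest for 9 of the 10 genes (*POU4F1* on 2 UMIs), *GAP43* being brightest in amacrine cells of N354, *STMN2* and *UCHL1* are also bright in amacrine and horizontal cells, and *NEFM* is bright in bipolar cells of both dogs.

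*NEFL* had 87.1 UMIs per 10000 (84.5 to 89.6) in ganglion cells of N350, the highest level of the 10 over the 9 cells summed. This rank rested on the 3 deepest cells. In the other 6 cells *NEFL* had 41 UMIs per 10000, *STMN2* 40.1 and *UCHL1* 53.7, and the medians over the 9 cells were 55.1 for *NEFL* and 54 for *UCHL1*. In amacrine cells its level was 2.27 in N350 and 2.01 in N354, and in horizontal cells 0.11 and 0.102. Bipolar cells held 0.576 and 0.722. The order of these interneurons was the same in both dogs, on 2 UMIs in horizontal cells of N354. *NEFL* in ganglion cells was 38.3 times its level in amacrine cells (34.9 to 42.1) and 793 times that in horizontal cells (463 to 1490.6). With the 3 deepest cells left out these ratios were 18.0 and 374, below the counting intervals. No amacrine cell of N350 reached the lowest ganglion cell, since the highest amacrine cell had 22.5 UMIs per 10000 and the lowest ganglion cell 23.4. Of all 5489 UMIs of *NEFL* in N350, the 9 ganglion cells held 82% (81 to 83%), although these cells made up 0.101% of the library and contributed 2.16% of its UMIs.

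*NEFM* had 45.8 UMIs per 10000 (44 to 47.7) in ganglion cells. Its level was 0.725 and 1.58 in amacrine cells and 1.35 and 2.66 in horizontal cells of N350 and N354. Bipolar cells stood above both, with 3.54 and 6.23. The medium chain was therefore found more widely among interneurons than the light chain, and the class that came next after ganglion cells was bipolar cells. Its ganglion level was 63.2 times the amacrine level (53.7 to 74.8), 33.9 times the horizontal level (28.9 to 40) and 12.9 times the bipolar level (11.5 to 14.5). With the 3 deepest ganglion cells left out, the first 2 ratios were 47.8 and 25.6, below the counting intervals. In single cells, 16 of 375 bipolar cells of N350 (4.27%) reached the lowest ganglion cell, and no amacrine or horizontal cell did. The highest bipolar cell, at 34.8 UMIs per 10000, lay above the median ganglion cell at 27.9. Bipolar cells were above horizontal cells by 2.62 times (2.16 to 3.19) in N350 and by 2.34 times (1.75 to 3.19) in N354. In N354, where no ganglion cell was gated, bipolar cells held 69.9% (65.9 to 73.6%) of the 568 UMIs of *NEFM*.

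*NEFH* had 18.5 UMIs per 10000 (17.4 to 19.7) in ganglion cells. It was low in amacrine cells, with 0.0936 in N350 and 0.168 in N354, and in bipolar cells, with 0.0107 and 0.0157. Horizontal cells held 1.88 and 3.38. The heavy chain thus separated ganglion from amacrine cells by 198 times (127 to 326) and from horizontal cells by 9.84 times (8.49 to 11.4). In single cells the last separation was incomplete, because 42 of 90 horizontal cells of N350 (46.7%) were at or above the lowest ganglion cell, against 6 of 305 amacrine cells (1.97%). The level rested on a few cells as well. With the 3 deepest ganglion cells left out, the other 6 held 3.34 UMIs per 10000, which was 35.7 times the amacrine and 1.77 times the horizontal level.

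All 3 neurofilament chains were found together in 9 of 9 ganglion cells, in 4 of 305 amacrine cells (1.31%), in 2 of 90 horizontal cells (2.22%) and in 3 of 5012 rods (0.0599%) of N350. The depth differs between these classes, with medians of 48680 UMIs in ganglion cells, 5873 in amacrine cells, 13881.5 in horizontal cells and 1083 in rods. When every cell was thinned to 1000 UMIs, a UMI of *NEFL* was expected in 97.4% of ganglion cells, 14.9% of amacrine cells, 1.23% of horizontal cells and 1.09% of rods, a class that serves as the background. Thinning left out 0 ganglion, 7 amacrine, 1 horizontal and 2113 rod cells that were shallower. The shares before thinning were 100, 41.3, 6.67 and 1.3%. For *NEFH* the thinned shares were 49.1, 0.8, 14.8 and 0.176%, and those before thinning 100, 5.57, 70 and 0.16%. The thinned share of horizontal cells with *NEFL* (0.0407 to 6.28%) was therefore not told apart from the background in N350. That with *NEFH* (8.17 to 23.9%) was above it. In N354 the thinned shares with *NEFL* were 1.13% of 15 horizontal cells, with an upper limit of 23.7%, and 0.192% of rods.

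*STMN2* encodes stathmin-2, which regulates microtubules in growing and maintained axons. It had 48.4 UMIs per 10000 (46.6 to 50.4) in ganglion cells. In amacrine cells it had 8.09 and 13.7, and in horizontal cells 4.25 and 5.02. Bipolar cells held 0.992 and 0.596 and rods 0.152 and 0.0143. *STMN2* was thus found in amacrine and horizontal cells as well, with ganglion ratios of 5.99 over amacrine (5.63 to 6.37) and 11.4 over horizontal cells (10.4 to 12.6). Its highest amacrine cell, at 42.1 UMIs per 10000, lay above the median ganglion cell at 37.8, and 21 of 305 amacrine cells (6.89%) reached the lowest ganglion cell. No horizontal cell did.

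*GAP43* encodes a membrane protein of growth cones and presynaptic endings. It did not separate ganglion from amacrine cells. It had 10 UMIs in 5 of the 9 ganglion cells of N350, a level of 0.193 per 10000 (0.0927 to 0.356), against 0.173 in amacrine cells, a ratio of 1.12 (0.495 to 2.29). With the 3 deepest cells left out, in which it had no UMI, the ratio was 2.44. Relative to horizontal cells, which held 1 UMI in N350, the ratio was 22.9 (3.26 to 994). In N354 the amacrine level was 2.15 (1.65 to 2.74), above that of N350 by more than the counting intervals. Dog and gene annotation cannot be told apart in this difference. Of the 148 UMIs of *GAP43* in N354, 53 were in 4 cells gated as Müller glia, while in N350 the 34 UMIs in rods were spread over 33 cells.

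*SNCG* encodes gamma-synuclein, a small protein abundant in ganglion cell bodies and axons. It had 19.8 UMIs per 10000 (18.6 to 21) in ganglion cells and not a single UMI in 305 amacrine cells of N350 or in 41 of N354. The ganglion level was thus at least 1409.1 times that of amacrine cells, against a floor of 3 UMIs summed over the class. Horizontal cells of N350 held 6 UMIs, a ratio of 390 (179 to 1066.2), and those of N354 held none. The highest level of a class outside ganglion cells in N350 was 0.218 in vascular cells, on 5 UMIs. *SNCG* was the most exclusive of the 10, with 95.1% (93.6 to 96.3%) of its 1076 UMIs in the 9 ganglion cells. In N354 it had 11 UMIs in 6 cells of the whole library.

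*THY1* encodes a surface glycoprotein through which ganglion cells are often purified. It had 8.74 UMIs per 10000 (7.95 to 9.58) in ganglion cells. Amacrine cells held 1.46 and 1.31, in the same range in both dogs, and horizontal cells held 2 UMIs in N350 and 1 in N354. *THY1* therefore separated ganglion cells from horizontal cells, with a ratio of 517 (142 to 4285.5), far more than from amacrine cells, with a ratio of 5.97 (5.16 to 6.91). The size of the first ratio is uncertain, because it rests on 2 UMIs in horizontal cells, and it was 1042.2 with a gate minimum of 6 UMIs and 124 as a mean over cells. In single cells, 55 of 305 amacrine cells (18%) reached the lowest ganglion cell. That was the shallowest ganglion cell, at 2.82 UMIs per 10000, which stood apart as described below, and the next lowest had 4.48. The overlap without it was not computed. After thinning to 1000 UMIs, a UMI of *THY1* was expected in 57.7% of ganglion cells, 13.1% of amacrine cells and 0.599% of rods, against 100, 51.5 and 0.858% before thinning.

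*RBPMS* encodes an RNA-binding protein that marks ganglion cells across mammals. It had 2.24 UMIs per 10000 (1.85 to 2.69), 116 UMIs in all 9 cells. Neither amacrine nor horizontal cells of either dog held a UMI, so that the ratios were at least 160 and at least 88.5. The class that came next was not a neuron. Vascular cells of N350 held 1.7 UMIs per 10000 in 39 UMIs, a level from which ganglion cells did not differ beyond counting error, with a ratio of 1.32 (0.91 to 1.95). Astrocytes held 0.364 in N350 and 0.416 in N354, above Müller glia by 11 times (6.01 to 20) and 15.3 times (5.13 to 44.6). *RBPMS* thus separated ganglion cells from amacrine and horizontal cells but not from the cells of vessels.

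*POU4F1* encodes a transcription factor of ganglion cells, also known as BRN3A. It had 3 UMIs in N350, 2 of them in 1 ganglion cell and 1 in a rod. This is at the floor of 3 UMIs, and no ratio was formed. Its relatives *POU4F2* and *POU4F3*, which were gate markers, had 2 and 5 UMIs, all in ganglion cells. The transcription factors of the family were thus barely captured, and 8 of the 9 ganglion cells had no UMI of *POU4F1*.

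*UCHL1* encodes a deubiquitinase that is among the most abundant proteins of neurons. It had 45.6 UMIs per 10000 in ganglion cells. Amacrine cells held 12.1 and 10.2 and horizontal cells 11 and 3.74. Astrocytes held 9.28 and 8.54, in both dogs within 2 times of amacrine cells, against 0.623 and 0.584 in Müller glia. *UCHL1* separated ganglion from amacrine cells by 3.76 times (3.56 to 3.98) and from horizontal cells by 4.15 times (3.87 to 4.44), the smallest ratio of any member other than *GAP43* against amacrine cells. In N350, 113 of 305 amacrine cells (37%) and 29 of 90 horizontal cells (32.2%) were at or above the lowest ganglion cell. That was the shallowest ganglion cell, at 11.9 UMIs per 10000, which stood apart as described below, and the next lowest had 21.7. The overlap without it was not computed. The level in astrocytes was 14.9 times (13.2 to 16.8) that in Müller glia in N350 and 14.6 times (11.8 to 18.1) in N354. Müller markers stood at 185 and 208 UMIs per 10000 in astrocytes and at 343 and 499 in Müller glia.

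**Figure D2:**
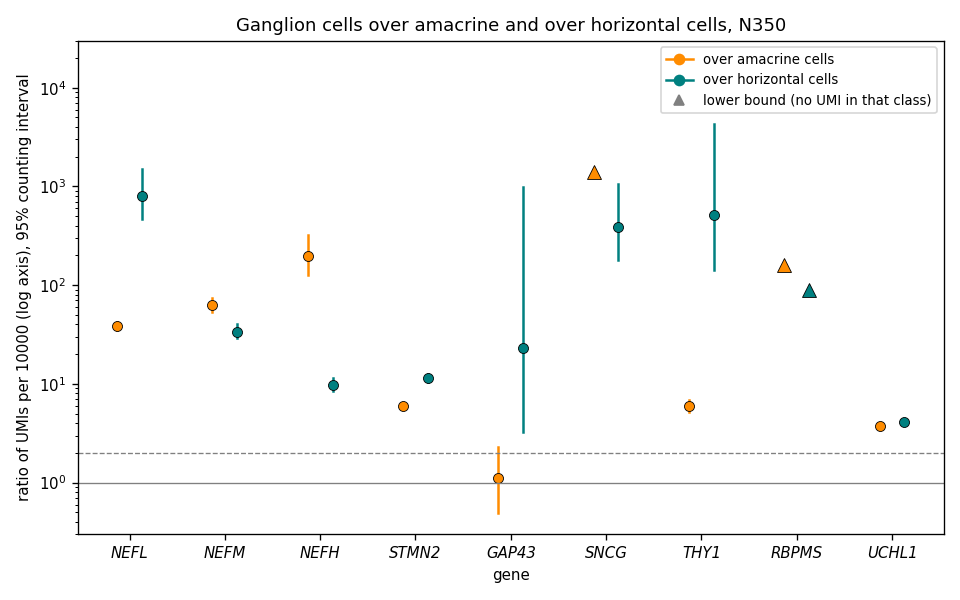
Ratio of UMIs per 10000 in the 9 ganglion cells over 305 amacrine cells (orange) and over 90 horizontal cells (green) of N350 for 9 genes, on a log axis, with 95% counting intervals as bars, triangles as lower bounds where the other class held no UMI, a solid line at 1 and a broken line at 2. Only *GAP43* over amacrine cells, at 1.12, lies below 2, while *NEFL* and *THY1* lie far higher over horizontal than over amacrine cells and *NEFH* the other way round.

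The members thus differed in the neighbour in which they were also found. *NEFL* and *THY1* were found in amacrine cells and, in N350, no higher in horizontal cells than in rods. *NEFH* was found mainly in horizontal cells. *SNCG* and *RBPMS* were at 0 UMIs in amacrine cells and at 6 and 0 in horizontal cells of N350, and *STMN2* and *UCHL1* were found in both classes.

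The 9 ganglion cells had between 17700 and 111578 UMIs and 4535 to 9083 genes, and none had a UMI of an amacrine marker. They are numbered from the deepest, 1, to the shallowest, 9, and are cells of 1 animal, not replicates. *NEFH* split them without overlap. Cells 1, 2 and 3 had 41.2, 21.7 and 28 UMIs of *NEFH* per 10000, and the other 6 had between 1.25 and 4.75. *NEFL* had 131, 112 and 133 in the same 3 cells and between 23.4 and 75.7 in the others. The 3 deepest cells were therefore the richest in the light and the heavy chain. For *NEFM* this did not hold, since cell 4 had 71.6, above cells 2 and 3 with 27.9 and 56.9.

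*SNCG*, *THY1* and *RBPMS* did not follow the neurofilaments across the cells. *SNCG* varied least, from 10.7 to 29.8 with a median of 18.3, and its lowest was cell 9. *THY1* ranged from 2.82 to 14.8 with a median of 10.2, and cells 1 and 3 were below the median at 4.48 and 6.04. *RBPMS* ranged from 0.565 to 5.03, with the highest values in cells 7 and 8. *UCHL1* ranged from 11.9 to 64.9 with a median of 54. *GAP43* was found only outside the 3 deepest cells, with 6 of its 10 UMIs in cell 5. As a description over the 9 cells, Spearman's rank correlation with *NEFL* was 0.85 for *NEFH*, 0.833 for *NEFM* and 0.717 for *STMN2*. It was -0.94 for *GAP43* on 10 UMIs, -0.717 for *THY1*, -0.65 for *RBPMS* and -0.533 for both *SNCG* and *UCHL1*. The cells share a library, and their values share the total UMIs as divisor. Cells 5, 7 and 8, the lowest in *NEFL*, also held 95, 139 and 112 UMIs of rod markers, against at most 9 in each of the others, and the part of this in the order of the cells was not tested.

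Cell 9 stood apart. It had 17700 UMIs, 140 UMIs per 10000 of Müller markers against at most 28.6 in the other 8 cells, and 4 UMIs of ganglion gate markers, none of them *SLC17A6*. Its mitochondrial share of 20.5% was near the 19.7% of cell 2, with at most 9.6% in the remaining cells. Cell 9 had 75.7 UMIs of *NEFL* per 10000 but the lowest *SNCG*, *THY1*, *RBPMS* and *UCHL1* of the 9. The overlaps of single cells given above for *THY1* and *UCHL1* therefore rest on cell 9. A gate with a minimum of 6 marker UMIs left it out. Over the remaining 8 cells, 8 and 9 members were again at least 2 times higher than in amacrine and horizontal cells.

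**Figure D3:**
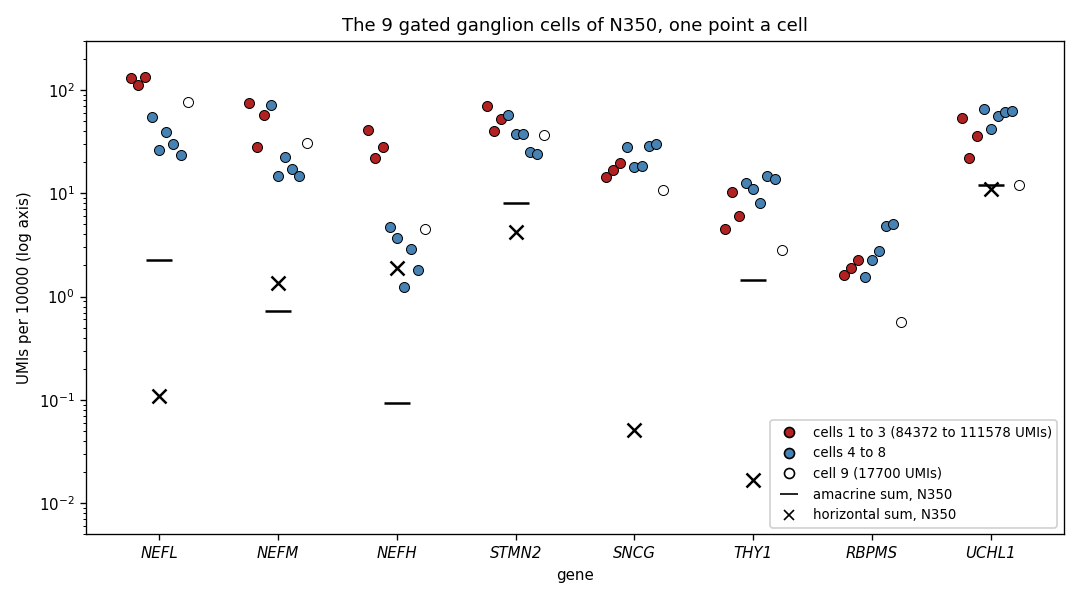
UMIs per 10000 on a log axis for 8 genes in each of the 9 ganglion cells of N350, ordered from the deepest cell at the left of each group to the shallowest at the right, with the summed amacrine level as a dash and the summed horizontal level as a cross (a class with no UMI has no mark). Cells 1 to 3 (red) stand apart from the other 6 for *NEFH*, at 21.7 or more against 4.75 or less, whereas the 9 cells lie within 10.7 to 29.8 for *SNCG*.

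Cells outside the ganglion gate were searched for UMIs of at least 6 members, a description of cells chosen for these genes. In N350, 7 amacrine cells, 1 rod and 6 unassigned cells had them, and in N354 4 amacrine cells and 1 unassigned cell. None of the amacrine cells had a UMI of *SNCG*. Of the 7 other cells of N350, 5 had *SNCG*, and these were shallow, from 998 to 3598 UMIs, and had no amacrine marker. The deepest of the 5 had 38 UMIs of *NEFL*, 20 of *NEFM*, 4 of *NEFH*, 9 of *STMN2* and 5 of *SNCG* among 3598. *RBPMS* was at 0 in 4 of the 5 cells, *THY1* in 2 and *NEFH* in 1. All 9 gated ganglion cells of N350 had these 3 genes, but at 17700 UMIs or more. After the thinning used above, a UMI of *RBPMS* was expected in 21.8% of ganglion cells, of *THY1* in 57.7% and of *NEFH* in 49.1%. The zeros were thus seen at unlike depth and do not separate the 5 cells from the gated ones. The 5 cells had between 0 and 2 UMIs of ganglion gate markers and were not counted as ganglion cells. The single cell of N354 had 21299 UMIs, with 6 UMIs of *SNCG* but only 1 of *NEFL*, 2 of *NEFM* and 0 of *NEFH*.

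The UMIs of the members were distributed accordingly. In N350 the 9 ganglion cells held 44.7% of the 5599 UMIs of *STMN2*, 43% of the 1052 of *THY1*, 52.3% of the 222 of *RBPMS* and 26.6% of the 8849 of *UCHL1*. Without them the level over all remaining cells was 0.42 UMIs per 10000 for *NEFL*, 0.0226 for *SNCG* and 2.77 for *UCHL1*. In N354, amacrine cells held most of the UMIs of *STMN2* (63.7%), bipolar cells most of *NEFM* and horizontal cells most of *NEFH* (66%). For *UCHL1* amacrine cells held the largest share in both dogs, at 29.3 and 37.4%.

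**Figure D4:**
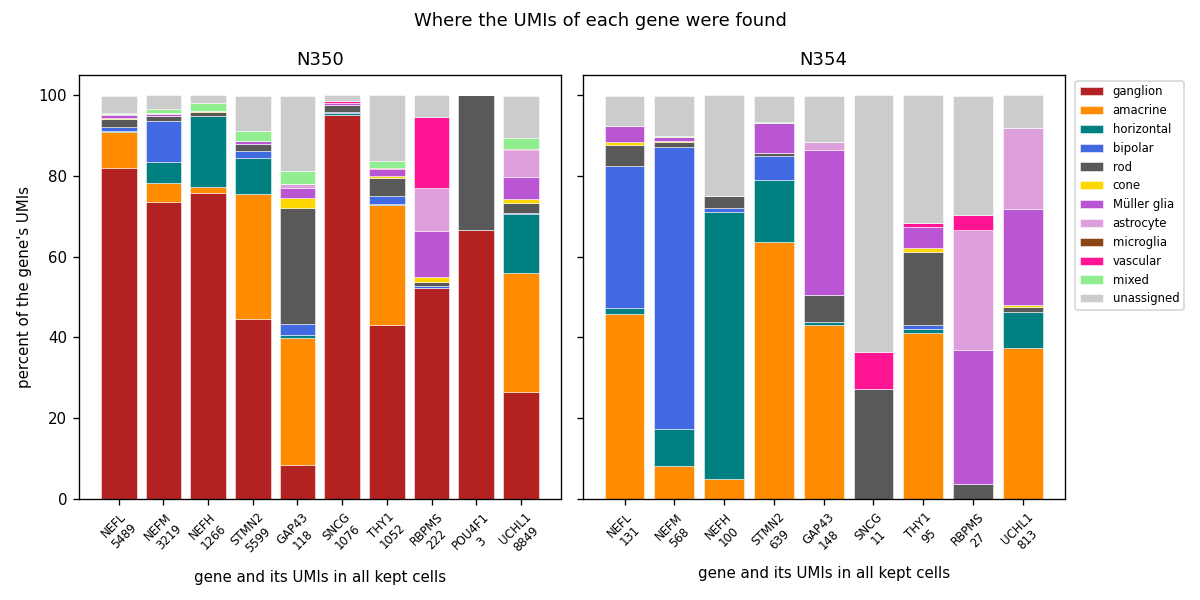
Percent of the UMIs of each gene found in each gated cell class, for N350 (left) and N354 (right), with the number of UMIs of the gene under its name and grey for unassigned cells. In N350 the 9 ganglion cells (red) hold 95.1% of *SNCG*, 82% of *NEFL* and 26.6% of *UCHL1*, and in N354, where none was gated, horizontal cells hold 66% of *NEFH* and bipolar cells 69.9% of *NEFM*.

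Horizontal and amacrine cells were present in both dogs, so their sums could be compared with the dog as a block by edgeR's quasi-likelihood test. The fit had been set for classes of at least 20 cells in a dog. Horizontal cells of N354 numbered 15, so all classes with at least 10 cells entered the fit given here. Of 12211 genes, 7.34% were called higher and 12.0% lower in horizontal cells at an adjusted p under 0.05. Of the 9 members tested, 3 were called higher and 3 lower. Without the block, edgeR called 1 higher and 0 lower. With the minimum of 20 cells, which leaves horizontal cells of N350 alone, it called 2 higher and 2 lower, and *NEFM* (edgeR adjusted p = 0.211) and *GAP43* (0.116) were no longer called. Horizontal cells also held amacrine gate markers, at 8.44 and 8.34 UMIs per 10000 against 28.9 and 29.8 in amacrine cells, and the part of this in the results was not tested.

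*NEFH* was higher in horizontal cells, with a log2 difference of 4.56 (SE 0.40, edgeR adjusted p = 2.06e-07, 0.0329 without the block). The ratio was 20.1 in N350 (12.7 to 33.6) and 20.1 in N354 (8.2 to 64). *NEFL* was lower, with a log2 difference of -4.36 (SE 0.65, edgeR adjusted p = 5.88e-05, 0.127 without the block). Its ratios were 0.0483 (0.0255 to 0.0833) in N350 and 0.0508 (0.00602 to 0.192) in N354. They rest on 13 and 2 UMIs in horizontal cells. The heavy and the light chain thus went opposite ways between these interneurons, in both dogs. *NEFM* was called higher by a log2 difference of 1.02 (SE 0.35, edgeR adjusted p = 0.0458, 0.609 without the block), and this call was lost in 6 of 9 alternatives.

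*THY1* was lower in horizontal cells, with a log2 difference of -5.94 (SE 0.64, edgeR adjusted p = 2.18e-06, 0.051 without the block), on 2 and 1 UMIs in horizontal cells. *GAP43* was lower by 4.74 on the log2 scale (SE 1.37, edgeR adjusted p = 0.0183, 0.278 without the block), on 1 UMI in horizontal cells of each dog. The call of *SNCG* as higher (edgeR adjusted p = 0.0336, 0.353 without the block) rested on 6 UMIs of N350 against 0 in amacrine cells of both dogs, and its fitted difference is not a measure of size. *STMN2* had a log2 difference of -1.03 (SE 0.45, edgeR adjusted p = 0.117) and *UCHL1* one of -0.59 (SE 0.50, edgeR adjusted p = 0.474), neither of them called. *RBPMS* had no UMI in either class and gave no difference.

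Subsets of interneurons, formed from gate markers after the class levels had been seen, are given as levels with no test. Amacrine cells with at least 2 UMIs of *GAD1* or *GAD2*, the enzymes of GABA synthesis, were set beside those with at least 2 of *SLC6A9*, the glycine transporter. *STMN2* was 9.31 (8.7 to 9.95) in 82 GABAergic and 0.144 (0.0529 to 0.314) in 78 glycinergic cells of N350. In N354 it was 15.8 in 27 cells and 0 in 5 cells, which allows up to 1.46 by the Poisson interval. The GABAergic level of *STMN2* was 64.6 times the glycinergic level (29.5 to 176) in N350. In N354 it was at least 13.3 times, against the floor of 3 UMIs and not against that upper limit. The 145 and 9 amacrine cells in neither subset held 10.8 (10.1 to 11.6) and 9.68 (6.88 to 13.2). Their median depth was 4699 and 2932 UMIs, against 10256 and 8240 in the GABAergic subset. They can therefore include GABAergic cells with fewer than 2 UMIs of *GAD1* or *GAD2*. Whether *STMN2* is found outside GABAergic cells was not tested. *UCHL1* followed with 15.6 against 4.4 in N350 and 12.2 against 1.19 in N354. *NEFL* and *THY1* were spread over both groups, at 2.92 against 2.02 and 1.61 against 1.3 in N350.

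Bipolar cells were divided by *TRPM1* or *GRM6*, genes of the ON pathway, and by *GRIK1*, a kainate receptor subunit of OFF bipolar cells. *NEFM* was 4.15 (3.66 to 4.67) in 225 ON cells and 0.383 (0.0463 to 1.38) in 26 OFF cells of N350, the latter on 2 UMIs, with a ratio of 10.8 (2.97 to 89.9). In N354 it was 6.25 (5.6 to 6.94) in 227 ON cells, and the 2 OFF cells were too few to compare. *NEFM* was similar in ON cells with and without *PRKCA*, the kinase of rod bipolar cells, at 4.34 and 3.95 in N350 and 5.97 and 5.72 in N354. In N350 the median depth was 3047 UMIs in 153 cells with *PRKCA* and 1640 in 46 without. In N354 it was 2835 in 129 cells and 1642 in 50. The cells without *PRKCA* can therefore include rod bipolar cells in which it was not captured. These groups do not cover all 225 and 227 ON cells, and the remaining ON cells were in neither group. *NEFL* in N350 was lower in ON cells with *PRKCA*, at 0.329 (0.188 to 0.534), than in those without, at 2.52 (1.67 to 3.64). In N354 these levels were 0.7 and 0.755, so the difference was seen in 1 dog of 2.

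**Figure D5:**
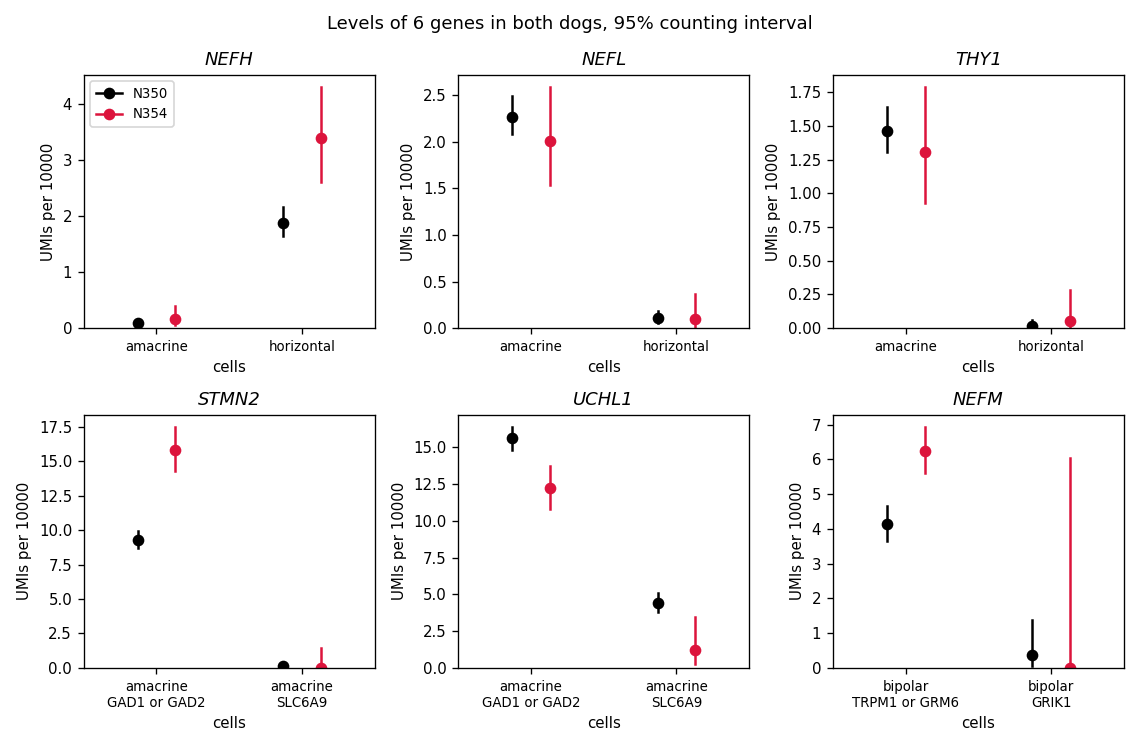
UMIs per 10000 with 95% counting intervals in N350 (black) and N354 (red), for *NEFH*, *NEFL* and *THY1* in amacrine and horizontal cells (top) and for *STMN2*, *UCHL1* and *NEFM* in subsets of amacrine and bipolar cells (bottom), each panel with its own linear axis from 0. *NEFH* is higher and *NEFL* and *THY1* are lower in horizontal cells of both dogs, and *STMN2* is 9.31 and 15.8 in GABAergic amacrine cells against 0.144 and 0 in glycinergic ones.

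Other genes of the neuronal cytoskeleton and axon were mixed in direction. Of a list of 24, 23 were listed in N350, and relative to amacrine cells 8 were at least 2 times higher in ganglion cells, 7 at least 2 times lower and 8 between. The share that was higher was 34.8%, against 8.92% of all genes, with a median ratio of 0.897 against 0.76. Relative to horizontal cells the numbers were 13, 3 and 7, a share of 56.5% that was higher against 17.4% of all genes, with a median of 2.86 against 0.859. Whether the list differed from the members or from other genes was not tested. *INA*, which encodes alpha-internexin, another neurofilament subunit, was 6.7 times higher than in amacrine cells (6.05 to 7.42), and *MAP1B*, a microtubule-associated protein of axons, 5.42 times (5.12 to 5.73). *GPM6A*, a membrane glycoprotein of neurites, had a ratio of 0.227 (0.181 to 0.282). Relative to horizontal cells, the RNA-binding proteins *ELAVL3* and *ELAVL4*, which horizontal cells of N350 lacked, were at least 94.6 and at least 101 times higher, and *STMN1* and *ANK2* had ratios of 0.284 and 0.26. Of 22 genes of the list tested between horizontal and amacrine cells by edgeR, 3 were called higher and 12 lower, beside 7.34% and 12.0% of all genes. Without the dog as a block, 1 was called higher and 0 lower.

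For each member other than *POU4F1*, the genes with the most similar level over 19 sums of dog and class were sought among 8033 genes, as a description in which the 9 ganglion cells form 1 point. *NEFL* was most like *GNG3* (Pearson's r = 0.909), *CARTPT* (0.906) and *DNM3* (0.902), and *THY1* was most like *CARTPT* (0.905), *DNM3* (0.891) and *NEFL* (0.874). *NEFM* was most like *TTC3* (0.915), *SYT4* (0.904) and *MAP6* (0.894), and *NEFH* like *CLEC2L* (0.927), *PPP1R1C* (0.878) and *GNAI1* (0.854). The lists of the 3 chains did not overlap, but lists of 3 genes from 8033 do not measure how alike the chains are. *NEFL* and *NEFM* are neighbours on 1 chromosome, with 0 protein-coding genes between them in the RefSeq table of the dog assembly UU_Cfam_GSD_1.0. *STMN2* was most like *DMTN* (0.988), *FABP3* (0.97) and *SNRPN* (0.963), *GAP43* like *GAD2* (0.912), *ZMAT4* (0.896) and *AK5* (0.894), and *UCHL1* like *CIBAR1* (0.943), *PCDH9* (0.928) and *RAB6B* (0.919). *RBPMS* was most like *AKAP12* (0.878), *APBB2* (0.852) and *BCAM* (0.839). *SNCG* had the weakest likeness, to *NIBAN1* (0.744), *THY1* (0.743) and *STK24* (0.74). Candidates needed at least 50 UMIs in each dog, and no ganglion cell was gated in N354. Genes confined to ganglion cells could thus hardly be candidates, as *SNCG* itself had 11 UMIs in N354, *RBPMS* 27 and *SLC17A6* 0. The weak values are therefore not read as a trait of *SNCG*.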

How the data were processed

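The authors counted reads of 3′ droplet libraries with Cell Ranger 6.0.2 (per the file headers), and what they deposited are UMI counts of each gene in each called cell, not normalized. The paper names canFam6 as the genome, and the annotation used for each dog is not given in the sources used here. Gene names differ between the dogs, 15224 being listed in both, so dog and annotation are confounded. Columns of other samples numbered 0.

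Cells with at least 200 genes were kept, with no mitochondrial limit. The study's limit of 5% on names that start with MT- removed no cell of N350, where the only such name is a metallothionein, and left 1369 cells of N354. A cell entered a class when it had at least 3 UMIs from at least 2 of its markers, at 3 or more times the number expected from its depth, and, if several classes passed, when the best led by 3 times. Cells in which none led were left out as mixed. Remaining cells were called rods or Müller glia, or left unassigned. The thresholds were settled on gate markers alone, and *SEPTIN4*, *KDR* and *FLT1* were left out of the gate because other classes held them. Doublets were treated by this rule, and the 4% of cells with the highest Scrublet score (scanpy 1.11.5) were removed as an alternative.

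Levels, ratios and intervals were computed in Python 3.11.15 with numpy 2.4.6, scipy 1.17.1 and pandas 2.3.3. Shares after thinning to 1000 UMIs are expectations over cells with at least that many. For the test, UMIs were added up within each class of a dog and fitted with edgeR 4.0.16 (R 4.3.3), TMM normalization, Benjamini-Hochberg adjustment over all genes with at least 10 UMIs, and the dog as a block, since sums of a dog come from 1 animal. This was checked by correlating, over genes, the differences between dogs of the several classes, which gave values between 0.536 and 0.822 for 7 classes. The fit had been set for classes of at least 20 cells, and the alternative of at least 10 was used because N354 has 15 horizontal cells. DESeq2 1.42.0 was another alternative. The test was run on simulated data for horizontal against amacrine cells, with 12074 genes of which 200 were changed by 2 on the log2 scale. It recovered 84.5% of them, and 30 of its 199 calls (15.1%) were false, above the nominal 5%, so calls near the threshold are less sure than their adjusted p. P-values rest on 2 animals.

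The genes named are the 10 members, a list of 24 axon and cytoskeleton genes (as counts, up to 8 named by the size of the ratio, with 1 that qualified not reported here), the 3 genes most like each member by Pearson's r of log2(UMIs per 10000 + 0.1) among genes with at least 50 UMIs in each dog, and the gate markers. The members and lists were chosen with earlier results of these data known.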

Additional observations from a re-analysis of the deposited data

How the results depend on the processing

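The number of members at least 2 times higher in ganglion cells was 8 over amacrine and 9 over horizontal cells under every alternative run except the removal of the 3 deepest cells, an alternative chosen after seeing the data, which gave 9 and 8. The study's mitochondrial limit, which removes no cell of N350, and leaving out N354 could not change these counts. Of 141 recomputed ratios, 118 stayed within the counting interval, among them those under the mitochondrial limit, which could not move. The lower bounds of *SNCG* and *RBPMS* have no such interval and were judged by the counting error of the ganglion UMIs alone. The other 23 came from the removal of the 3 deepest cells or from the mean over cells, also chosen afterwards, with none crossing 1. By the mean over cells *NEFH* in ganglion cells was 6.64 times its level in horizontal cells, and *THY1* 124 times. Between horizontal and amacrine cells, DESeq2 called 1 member higher, and with no replicate block edgeR called 1 higher and 0 lower. Over all genes DESeq2 called 583 higher and 845 lower, and the fit with no replicate block called 61 and 107, against 896 and 1461 with the block. *NEFM* was no longer called with DESeq2 (adjusted p = 0.457), with its size factors in edgeR (0.0544), with a gate minimum of 6 UMIs (0.195), with all fixed markers in the gate (0.0724), chosen after seeing the data, or with the minimum of 20 cells set at first (0.211). The minimum of 20 cells leaves 1 horizontal sum that is assumed to vary like the other classes. *GAP43* was not called with DESeq2 (adjusted p = 0.0773) or with a minimum of 20 cells (0.116), and DESeq2 gave *SNCG* no adjusted p. *STMN2* was called lower with the minimum of 6 UMIs by edgeR (adjusted p = 0.0486). The cause of these changes was not tested. No alternative run reversed a direction. The mitochondrial limit could not be applied to this fit, because it leaves 4 amacrine and 0 horizontal cells of N354, and leaving out a dog leaves no test. In N350 and N354 alone the log2 ratio of *THY1* was -6.44 and -4.68. With 9 ganglion cells of 1 dog, the spread of their levels between animals is unknown. *POU4F1*, at 3 UMIs, was below what this depth can compare.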
